A study of Mus musculus with 15 samples.

Results

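Gene expression was compared between RAW264.7 cells, a macrophage line from mice transformed by Abelson murine leukemia virus, given mesoporous silica particles (MSN500) or nonporous Stober silica particles (Stober500), both of nominal size 500 nm. The comparison rests on the 6 libraries that the labels place in these groups, 3 a side, of 15 RNA sequencing libraries in the series. The dosage label of MSN500 carries 111.8 µg/ml and that of Stober500 16.8 µg/ml, each worded as a fraction of the median lethal dose, and the wording leaves unclear whether the value is what the cells received. The labelled values stood at a ratio of 6.65, and porosity and dose cannot be told apart in anything that follows. Untreated cells (control), cells given pegylated mesoporous silica of 500 nm (MSN-PEG500, dosage label 84 µg/ml) and cells given Stober silica of 50 nm (Stober50, 13.1 µg/ml) served as context, with 3 libraries each. All groups were the same line at passages 6 to 14 in medium with 10% fetal bovine serum, and exposure is given as 24 h in one protocol and 4 h in another. The labels do not state whether the 3 libraries within each group were grown as separate cultures. The p-values accordingly reflect the library-to-library spread, possibly a technical one.

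Stober particles are solid spheres, whereas mesoporous particles are built around a surfactant template whose removal leaves them filled with pores. Macrophages take up particles of this size into phagosomes that mature by fusing with lysosomes, where a proton pump acidifies the lumen and hydrolases digest what was swallowed. Transcription factors of the MiT/TFE family raise lysosomal genes when lysosomes are loaded or damaged, and silica is known in macrophages for damaging that membrane and setting off interleukin 1 release through the NLRP3 inflammasome. RAW264.7 cells are also a standard source of osteoclast-like cells, which share the acid-secreting machinery.

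Library totals ran from 19216971 to 23181412 counts in MSN500 and from 19670973 to 26715096 counts in Stober500. At these totals 3 counts, the most that a count of 0 allows, equal 0.129 to 0.156 CPM (counts relative to library totals) in MSN500 and 0.112 to 0.153 CPM in Stober500, a limit that covers counting error only. Stober500 replicate 3 stood somewhat apart, with a chi-square of 5.86 and 6.81 per degree of freedom against the other libraries of its group, which differed from each other by 2.45. Without it 4962 genes were called in place of 5045, and none of the genes named below changed direction. The summed level of 12 macrophage markers was 17273 to 17804 CPM in MSN500 and 20046 to 20891 CPM in Stober500. Markers of other cell types were scarce: 1 of 7 fibroblast, 0 of 6 epithelial, 2 of 9 lymphocyte, 1 of 11 erythroid or granulocyte, 1 of 5 endothelial and 2 of 6 dendritic markers passed the filter on low counts.

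The mesoporous particle was compared with the nonporous one of the same nominal size to ask how porous silica shifts the macrophage transcriptome. Most listed genes of the lysosomal proton pump, lysosomal hydrolases, cholesterol synthesis, iron and heme handling and endoplasmic reticulum folding were higher in MSN500, and so were cytokine genes such as Tnf. Most mitosis genes and macrophage markers such as Csf1r were lower, by small amounts. The counts and values behind these statements are given list by list. Of 12798 genes tested, 5045 (39.4%) had a Benjamini-Hochberg adjusted p below 0.05 by the quasi-likelihood test of edgeR, the test behind every adjusted p given here and the meaning of "called". Fold changes are MSN500 over Stober500 on the log2 scale with a standard error (SE). This SE was derived from the test, as the absolute log2 change divided by the square root of the F statistic. The fold changes carry TMM factors of 0.974 to 1.02, so that they can differ slightly from the ratio of the CPM values. Where a mean ± SD is given, n = 3 in each group. Except for Nqo1, Ccl2, mt-Co1 and the genes said to overlap or to miss the threshold, the 3 MSN500 values of every gene given with values lay wholly above or wholly below the 3 Stober500 values. Of the 5045 called genes, 2550 were higher in MSN500 (19.9% of the genes tested) and 2495 were lower (19.5%). The counts of list members called higher and lower below are to be read beside these shares. The share called was larger among genes at higher levels, since 4555 of 9809 were called with only genes at a mean of at least 5 CPM tested. Lists of abundant genes are to be read beside that share as well. Most differences were small, since 3995 of the called genes (79.2%) differed by less than 1.5-fold. At least 2-fold differences were called for 401 genes (3.13%), 235 of them higher and 166 lower. With only genes at a mean of at least 5 CPM tested, such differences were called for 165. At least 4-fold differences were called for 48 genes that were higher and 14 that were lower. The 3 MSN500 values lay entirely above or below the 3 Stober500 values for 6658 genes (52.0%). The median log2 change of all genes tested was -0.0049. The even split between directions depended on the scaling: 33.4% of the calls were higher in MSN500 with library totals alone (1839 higher and 3667 lower), 42.3% with upper quartile factors and 50.5% with TMM factors.

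**Figure D1:**
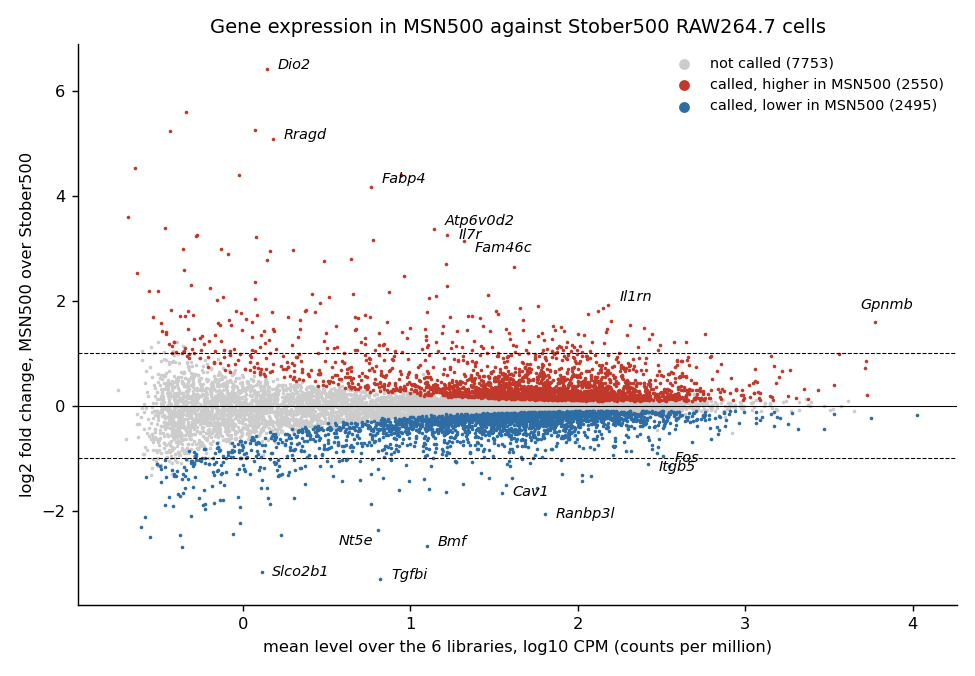
Each point is 1 of the 12798 genes tested, with its mean level over the 6 libraries (log10 CPM) on the horizontal axis and the log2 fold change of MSN500 over Stober500 on the vertical axis. Red points are the 2550 genes called higher in MSN500, blue points the 2495 called lower and grey points the rest, and the dashed lines mark 2-fold. The larger changes reach further upward (Dio2, Rragd, Fabp4) than downward (Tgfbi, Slco2b1).

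Untreated cells resembled Stober500 more than MSN500 in these genes. The control mean lay nearer to the Stober500 mean for 389 of the 401 genes called at 2-fold or more, namely 225 of the 235 higher and 164 of the 166 lower. Over all 5045 called genes it did so for 4606 (91.3%). This describes means only, and the labelled dose of Stober500 was the lower one.

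Fabp4, which encodes a fatty acid carrier of fat cells and lipid-laden macrophages, was present at 10.4, 10.4 and 12.4 CPM in MSN500, against 0.561, 0.621 and 0.763 CPM in Stober500. The groups lay far apart, with a log2 change of 4.17 ± 0.17 (SE, adjusted p = 5.82e-17), and control stood at 0.511 ± 0.0778 CPM (SD, n = 3), beside Stober500. Fabp4 (ENSMUSG00000062515) spans chr3:10204347-10208576, minus strand, of GRCm38. Atp6v0d2, a proton pump subunit of osteoclasts and macrophages, was at 23.0, 26.2 and 26.1 CPM in MSN500, against 2.43, 2.61 and 2.54 CPM in Stober500. It was the gene of the pump with the largest difference, at 3.38 ± 0.13 on the log2 scale (adjusted p = 8.30e-17), and its gene (ENSMUSG00000028238) spans chr4:19876841-19922605, minus strand. Il7r, the receptor chain for interleukin 7, had 27.8, 27.1 and 35.0 CPM in MSN500, against 2.66, 3.44 and 3.97 CPM in Stober500 (log2 change 3.25 ± 0.18). All MSN500 libraries exceeded all Stober500 libraries for these genes.

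Several of the genes furthest apart were nearly silent in Stober500, and their ratio is then best read from the counts themselves. Dio2, which activates thyroid hormone by removing an iodine, was at 2.86, 2.72 and 2.72 CPM in MSN500, against 0.0374, 0 and 0.0508 CPM in Stober500. It had 178 counts over the MSN500 libraries and 2 over the Stober500 libraries. The ratio of 97.3, after division by the library totals, has an exact 95% interval of 26.6 to 810.0 that covers counting error only. Tspan10, a tetraspanin, had 147 counts in MSN500 and 4 in Stober500 (ratio 40.2, interval 15.4 to 149). Rragd, a Rag GTPase that recruits mTORC1 and the folliculin complex to the lysosome, had 190 counts in MSN500 and 6 in Stober500 (ratio 34.6, interval 15.6 to 95.6). Ptpn14, a tyrosine phosphatase, had 118 counts in MSN500 and 6 in Stober500 (ratio 21.5, interval 9.59 to 59.8). Akap2 and Pakap overlap over 84.4% and 81.5% of their exonic lengths, so their nearly equal counts cannot be told apart (log2 change of Akap2 4.41 ± 0.19). Fam46c, a noncanonical poly(A) polymerase also called Tent5c, was at 37.3 ± 5.22 CPM in MSN500 and 4.44 ± 0.343 CPM in Stober500 (SD, n = 3 each). Plpp3, a lipid phosphatase, was at 2.17 ± 0.505 CPM in MSN500 and 0.238 ± 0.107 CPM in Stober500. Adra1a, an adrenergic receptor, was at 3.55 ± 0.113 CPM in MSN500 and 0.466 ± 0.159 CPM in Stober500.

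In the opposite direction, Tgfbi, a secreted matrix protein named for its induction by TGF-beta, was at 1.04, 1.49 and 0.949 CPM in MSN500, against 11.6, 12.4 and 12.3 CPM in Stober500. Its log2 change was -3.31 ± 0.14 (adjusted p = 4.60e-16), and the groups did not overlap. Tgfbi (ENSMUSG00000035493) spans chr13:56609603-56639339, plus strand. Bmf, a BH3-only inducer of apoptosis, had 2.81, 4.03 and 3.02 CPM in MSN500, against 24.6, 24.2 and 16.8 CPM in Stober500. Stober500 replicate 3 was the lowest of its group for Bmf and still stood well above every MSN500 library (log2 change -2.68 ± 0.15). Nt5e, the ectonucleotidase CD73 that makes adenosine, was at 2.00 ± 0.357 CPM in MSN500 and 10.8 ± 1.36 CPM in Stober500 (-2.37 ± 0.15 on the log2 scale). Ranbp3l, a Ran-binding protein, was the most abundant in CPM of the 12 genes that fell furthest, at 23.5 ± 1.32 CPM in MSN500 and 103 ± 9.28 CPM in Stober500. Slco2b1, an organic anion transporter, was at 0.246 ± 0.0336 CPM in MSN500 and 2.34 ± 0.720 CPM in Stober500, and Tmem119, a membrane protein best known as a microglial marker, at 0.323 ± 0.0759 CPM in MSN500 and 1.61 ± 0.0867 CPM in Stober500. The others of these 12 were Ermap, Trp53i11, Xirp1, the Notch receptor gene Notch4, Neurl1a and the junctional adhesion gene F11r, with log2 changes between -2.46 (Ermap) and -1.79 (F11r), and Xirp1 lies within the span of Cx3cr1 on the same strand.

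**Figure D2:**
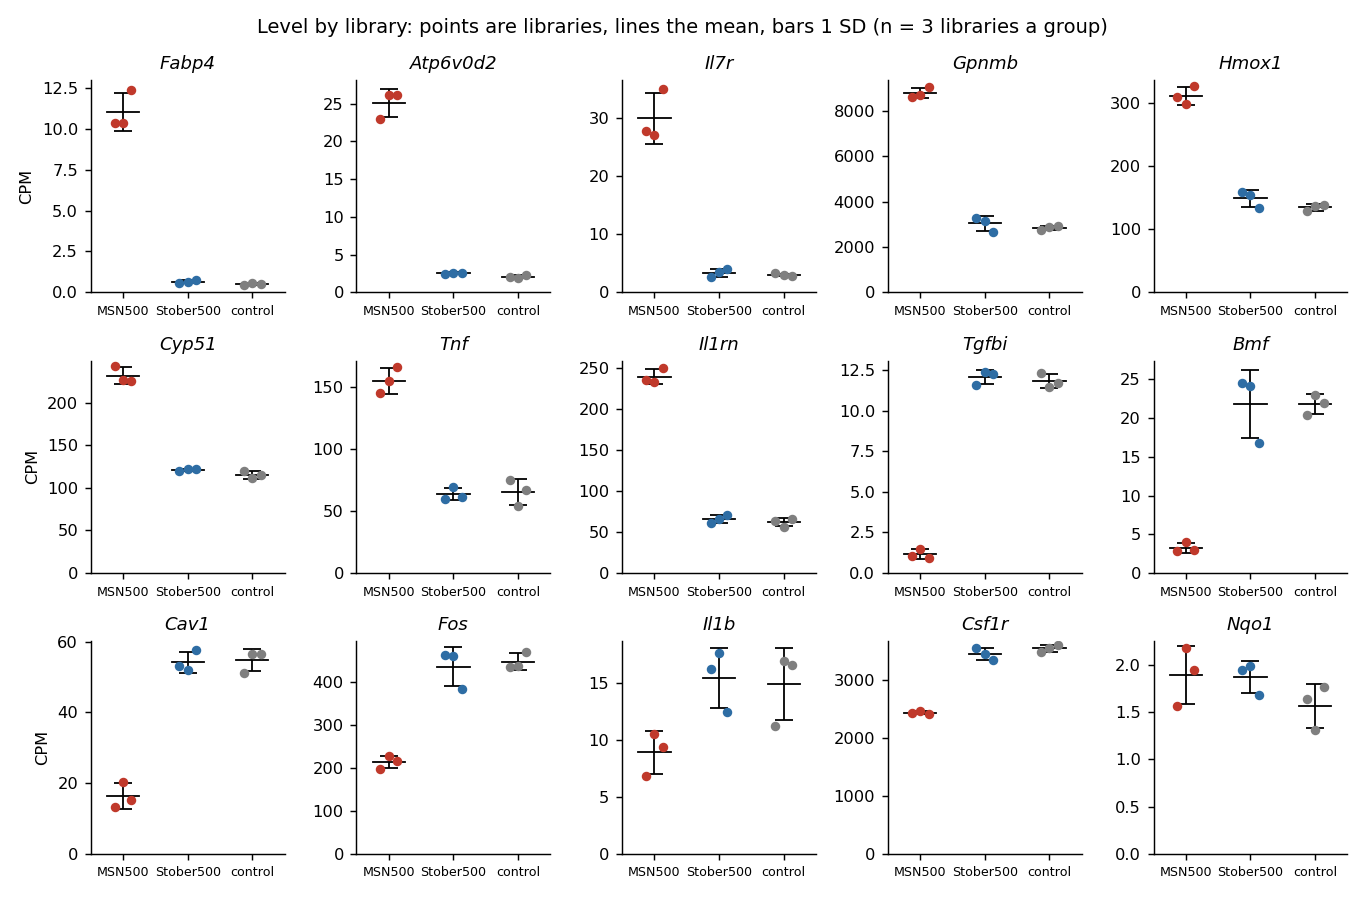
Levels of 15 genes in CPM (linear axis from 0), with MSN500 left of Stober500 and untreated control cells at the right. Points are libraries, horizontal lines means and bars 1 SD (n = 3). MSN500 stands apart from both other groups for every gene shown except Nqo1, whose values overlap between MSN500 and Stober500.

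The vacuolar proton pump (V-ATPase) acidifies lysosomes and is built from a cytosolic V1 ring and a membrane V0 ring. Of its 18 subunits and partners, 16 were higher in MSN500, 1 was lower and 1 did not pass, a median log2 change of 0.46. That is 94.4% of the list called, against 39.4% of all genes. In the V1 ring, the catalytic subunit Atp6v1a was at 798, 802 and 819 CPM in MSN500, against 444, 432 and 438 CPM in Stober500 (log2 change 0.94 ± 0.045). Atp6v1d, in the central rotor, was at 108 ± 4.03 CPM in MSN500 and 51.5 ± 0.238 CPM in Stober500 (1.12 ± 0.043), and Atp6v1c1, in the stalk that joins the rings, at 401 ± 12.9 CPM in MSN500 and 201 ± 4.16 CPM in Stober500 (1.06 ± 0.043). In the V0 ring the isoforms differed: beside Atp6v0d2, the a1 subunit Atp6v0a1 was higher by 1.05 ± 0.051 whereas Atp6v0e2 was lower at 47.0 ± 1.27 CPM in MSN500 and 58.1 ± 0.820 CPM in Stober500. Tcirg1, the a3 subunit of macrophages and osteoclasts, which was counted with the osteoclast genes, was higher by 0.77 ± 0.048. The proteolipid gene Atp6v0c had 13.3 ± 1.30 CPM in MSN500 and 13.8 ± 0.784 CPM in Stober500, an adjusted p of 0.935. Averaged over the 18 genes and set against the mean of Stober500, the MSN500 libraries stood at 0.65 to 0.69 on the log2 CPM scale, the Stober500 libraries at -0.013 to 0.016 and the control libraries at -0.063 to -0.056.

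Lysosomal hydrolases and membrane proteins followed with 39 of 53 higher, 9 lower and 5 not passing (median 0.25). Gpnmb, a glycoprotein of melanosomes and lysosomes, was at 8611, 8686 and 9052 CPM in MSN500, against 3291, 3146 and 2658 CPM in Stober500. It was already abundant in Stober500 and stood at 2838 ± 86.5 CPM in control, and its log2 change was 1.60 ± 0.056 (adjusted p = 3.66e-17). Per length, Gpnmb averaged 2312 ± 62.1 FPKM in MSN500 and 798 ± 87.4 FPKM in Stober500, and the aspartic protease gene Ctsd averaged 1883 ± 13.1 FPKM in MSN500 and 987 ± 40.9 FPKM in Stober500. The order of these levels thus differed, with Gpnmb above Ctsd in MSN500 and below it in Stober500. The summed CPM of the list was 41593 to 42471 in MSN500 and 26313 to 28207 in Stober500. Gla, the alpha-galactosidase missing in Fabry disease, was at 142, 136 and 139 CPM in MSN500, against 65.9, 64.5 and 67.8 CPM in Stober500 (1.14 ± 0.050), and Ctsd at 4724, 4725 and 4782 CPM in MSN500, against 2592, 2483 and 2385 CPM in Stober500 (0.99 ± 0.038). Ctsk, the collagen-cutting cathepsin of osteoclasts, was higher by 1.51 ± 0.083, and Clcn7, the lysosomal chloride exchanger, by 0.93 ± 0.046. Ctsb was higher by 0.86 ± 0.037 and Lamp1, a major lysosomal membrane glycoprotein, by 0.44 ± 0.037. Of the exonic length of Ctsb 12.8% is shared with Fdft1, and of that of Lamp1 9.3% with Grtp1.

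Some members ran against the rest of the list. Ctsh, an aminopeptidase cathepsin, was at 147, 147 and 137 CPM in MSN500, against 294, 291 and 236 CPM in Stober500, a log2 change of -0.87 ± 0.095 in which MSN500 lay wholly below Stober500. The dipeptidase Ctsc (-0.59 ± 0.044), Ctsf (-0.51 ± 0.060) and the ganglioside activator Gm2a (-0.47 ± 0.076) were lower too. Cathepsin genes thus differed in direction, with Ctsk, Ctsd, Ctsb and Ctsz among those called higher and Ctsh, Ctsc and Ctsf called lower.

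Among the MiT/TFE factors and the Rag, folliculin and LAMTOR proteins that hold them at the lysosome, 11 of 16 were higher, 1 was lower and 4 did not pass. After Rragd the largest difference was in Fnip2, a folliculin partner, at 219.8, 205 and 220.2 CPM in MSN500, against 82.2, 80.8 and 82.5 CPM in Stober500 (log2 change 1.46 ± 0.069). Rragc, the close relative of Rragd, was higher by 0.76 ± 0.042 and the scaffold gene Lamtor3 by 0.67 ± 0.061. The factors themselves differed less. Tfeb was at 31.4 ± 1.51 CPM in MSN500 and 26.7 ± 1.57 CPM in Stober500 (0.30 ± 0.070), Tfe3 at 163 ± 3.46 CPM in MSN500 and 169 ± 8.53 CPM in Stober500 (0.0073 ± 0.041, adjusted p = 0.913) and Mitf at 110.4 ± 9.50 CPM in MSN500 and 132 ± 4.34 CPM in Stober500 (-0.20 ± 0.046).

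MiT/TFE factors bind E-boxes, and lysosomal promoters are known for the form TCACGTG. In promoters of 300 bases around RefSeq start sites (build GRCm38.p6, both strands searched), TCACGTG occurred in 4 of 12 V-ATPase genes with a promoter in the table (33.3%), 13 of 44 lysosomal genes (29.5%) and 4 of 26 autophagy genes (15.4%), against 642 of 8967 genes tested (7.16%). The shorter CACGTG, which every TCACGTG contains, occurred in 4 of 12 (33.3%), 15 of 44 (34.1%) and 5 of 26 (19.2%) of these, against 1095 of 8967 (12.2%). These are counts of letters and not of bound sites. The 250 bases before the RefSeq start site are given for the called V-ATPase and lysosomal members with the largest difference whose promoter holds the longer motif, with matches in capitals. Atp6v1a is on the minus strand at chr16:44139260-44139509 and Gla on the minus strand at chrX:134601006-134601255. These RefSeq start sites lie 446 and 120 bases inside the genes as the deposited table annotates them. A run TCACGTGA reads as the motif on both strands.
Atp6v1a: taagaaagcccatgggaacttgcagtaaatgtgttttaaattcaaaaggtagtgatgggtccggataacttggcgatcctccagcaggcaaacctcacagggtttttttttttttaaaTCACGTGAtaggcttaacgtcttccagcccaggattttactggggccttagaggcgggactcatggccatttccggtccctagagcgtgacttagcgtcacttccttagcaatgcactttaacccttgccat
Gla: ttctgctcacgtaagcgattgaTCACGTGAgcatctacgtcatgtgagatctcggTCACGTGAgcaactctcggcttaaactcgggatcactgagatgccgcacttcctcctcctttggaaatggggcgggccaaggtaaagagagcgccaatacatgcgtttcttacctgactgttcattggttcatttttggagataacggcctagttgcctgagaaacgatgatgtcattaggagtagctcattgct
The run begins 132 bases before the RefSeq start site in Atp6v1a, and Gla has one at 228 and another at 195.

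Autophagy delivers cytoplasm to the lysosome, and its genes were mixed, with 11 of 33 higher, 15 lower and 7 not passing (median -0.029). The cargo receptor p62, from Sqstm1, was at 804, 776 and 804 CPM in MSN500, against 443, 440.2 and 426 CPM in Stober500 (0.93 ± 0.037), with 17.3% of its exonic length shared with Mrnip. Optn, another cargo receptor, was low at 0.785 ± 0.183 CPM in MSN500 and 0.226 ± 0.164 CPM in Stober500 and called higher by 1.73 ± 0.42. The conjugation enzyme Atg7 was higher by 0.55 ± 0.046, Gabarap by 0.35 ± 0.036 and Map1lc3b, which encodes LC3B, by 0.22 ± 0.047. Among the members called lower were the kinase gene Ulk1 at -0.57, Wipi1 at -0.61 and Atg2a at -0.55 on the log2 scale.

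Cholesterol synthesis and uptake genes, which SREBP2 turns on when sterol in the endoplasmic reticulum is low, were 23 of 26 higher, 0 lower and 3 not passing, with the highest median of the lists of at least 10 genes at 0.67. Hmgcs1, a synthase early in the pathway, was at 212, 223 and 211 CPM in MSN500, against 122, 118 and 124 CPM in Stober500 (0.89 ± 0.072, adjusted p = 2.13e-08). Further along the pathway, Fdps was at 165 ± 7.85 CPM in MSN500 and 88.4 ± 4.18 CPM in Stober500 (0.96 ± 0.048). Lss, which closes the sterol rings, was at 129.6 ± 5.19 CPM in MSN500 and 68.3 ± 2.54 CPM in Stober500 (0.99 ± 0.043). The demethylase gene Cyp51 was at 232 ± 9.79 CPM in MSN500 and 121 ± 1.33 CPM in Stober500 (1.00 ± 0.049) and Sc5d, a late desaturase, at 65.5 ± 0.973 CPM in MSN500 and 32.8 ± 1.46 CPM in Stober500 (1.06 ± 0.058). All of these differences were near 2-fold. The sterol sensor gene Insig1 was higher by 0.86 ± 0.050 and Srebf2, which encodes SREBP2, by 0.37 ± 0.049. The MSN500 libraries averaged 0.62 to 0.65 over the list, the Stober500 libraries -0.023 to 0.015 and the control libraries -0.034 to 0.0067 (log2 CPM against the Stober500 mean). With library totals alone 1 member was called lower.

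The sterol response motif TCACNCCAC occurred in the promoters of 1 of 19 list members (5.26%) and of 127 of 8967 genes tested (1.42%), on either strand. That member was Hmgcs1, whose 250 bases before the start site lie on the plus strand at chr13:119690101-119690350 (GRCm38.p6), with the match, 137 bases before the start, in capitals. The RefSeq start lies upstream of the gene start in the deposited table.
Hmgcs1: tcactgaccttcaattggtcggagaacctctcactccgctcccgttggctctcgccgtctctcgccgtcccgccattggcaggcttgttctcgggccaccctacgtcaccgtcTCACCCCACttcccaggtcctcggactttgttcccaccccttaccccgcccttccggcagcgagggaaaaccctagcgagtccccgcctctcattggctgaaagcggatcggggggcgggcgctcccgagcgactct

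LXR targets, which export cholesterol when sterols are plentiful, were divided: 3 of 15 were higher, 7 lower and 5 did not pass. The efflux transporter gene Abcg1 was at 33.3 ± 3.07 CPM in MSN500 and 49.0 ± 4.60 CPM in Stober500 (-0.50 ± 0.087). Its relative Abca1 was at 36.5 ± 2.45 CPM in MSN500 and 44.4 ± 4.47 CPM in Stober500 (-0.22 ± 0.077, adjusted p = 0.0278), a call that was lost without MSN500 replicate 1 (adjusted p = 0.126), without Stober500 replicate 2 (adjusted p = 0.167) and with a length trend removed (adjusted p = 0.0602). Mertk, a receptor for dying cells, was lower (-0.71 ± 0.070), as was Arl4c (-0.78 ± 0.066), while the receptor gene Nr1h3 itself was higher by 0.48 ± 0.062. The lipogenic Fasn was higher by 0.39 ± 0.051, and Apoe was at 6.46 ± 0.649 CPM in MSN500 and 6.68 ± 0.960 CPM in Stober500 (adjusted p = 0.977).

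Of 27 lipid handling genes 16 were higher, 5 lower and 6 not passing. Beside Fabp4, the fatty acid carrier gene Fabp5 was at 115, 117 and 117 CPM in MSN500, against 45.4, 44.2 and 39.5 CPM in Stober500 (1.49 ± 0.048) and Fabp3 at 1.86 ± 0.293 CPM in MSN500 and 0.563 ± 0.198 CPM in Stober500 (1.73 ± 0.25). Fabp3 shares 9.8% of its exonic length with Zcchc17. The droplet coat gene Plin2 (0.71 ± 0.042) and Soat1, which esterifies cholesterol (0.58 ± 0.043), were higher. Pparg, a fatty acid sensing receptor, was at 2.24 ± 0.0753 CPM in MSN500 and 1.58 ± 0.158 CPM in Stober500 (0.56 ± 0.16). The uptake receptor gene Cd36 (-0.39 ± 0.076) and Cpt1a, the gate of fatty acid oxidation (-0.58 ± 0.047), were lower.

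**Figure D3:**
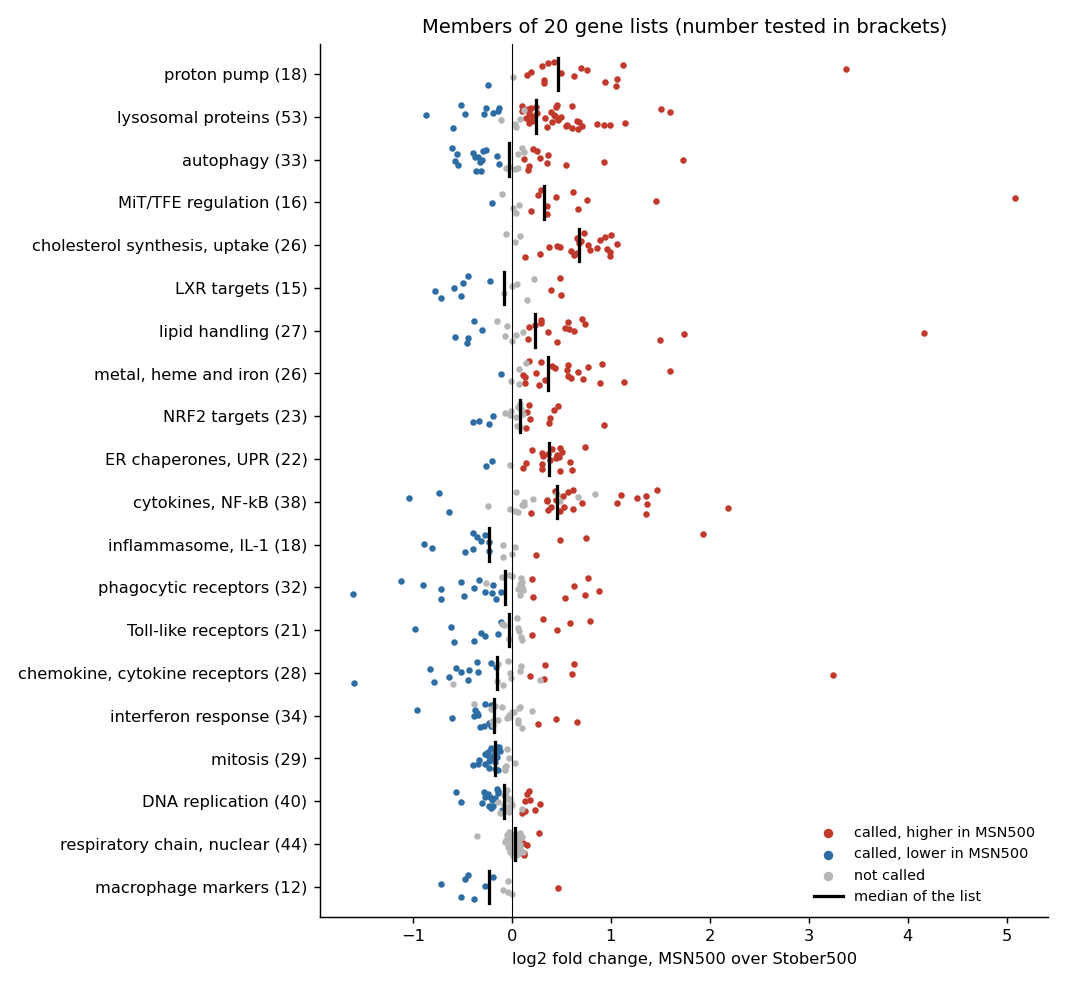
Log2 fold change of MSN500 over Stober500 (horizontal axis) for every tested member of 20 gene lists, a list per line with the number tested in brackets. Red points were called higher in MSN500, blue points lower and grey points were not called, and the black bar is the list's median. Proton pump, cholesterol, iron and endoplasmic reticulum lists lie mostly to the right of 0, mitosis and macrophage markers mostly to the left, and autophagy, receptors and DNA replication on both sides.

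Metal, heme and iron genes were 21 of 26 higher, 1 lower and 4 not passing (median 0.37). Hmox1, which breaks down heme, was at 308, 298 and 326 CPM in MSN500, against 159, 153 and 133 CPM in Stober500 (1.13 ± 0.052, adjusted p = 3.45e-15). The iron exporter gene Slc40a1 was at 11.7, 9.74 and 11.1 CPM in MSN500, against 4.12, 3.81 and 3.15 CPM in Stober500 (1.60 ± 0.15). The iron store was higher through both ferritin chains, Fth1 by 0.72 ± 0.043 and Ftl1 by 0.55 ± 0.045, and so was the importer gene Slc11a2 by 0.91 ± 0.044. Ftl1 shares 8.1% of its exonic length with Gm22133. The transferrin receptor gene Tfrc was at 601, 511 and 559.6 CPM in MSN500, against 404, 375 and 507 CPM in Stober500 (0.44 ± 0.13, adjusted p = 0.024), and its call was lost without MSN500 replicate 1 or 3 or Stober500 replicate 1 or 2 and with only the 6 libraries fitted (adjusted p of 0.0533 to 0.0883). Metallothioneins, which bind zinc and copper, were higher as well, with Mt2 at 69.7, 69.7 and 74.8 CPM in MSN500, against 37.2, 47.3 and 35.8 CPM in Stober500 (0.89 ± 0.083) and Mt1 at 215 ± 7.56 CPM in MSN500 and 141 ± 13.1 CPM in Stober500 (0.66 ± 0.060). Ireb2, an iron regulatory protein, was the member called lower at 116 ± 2.89 CPM in MSN500 and 131 ± 4.71 CPM in Stober500 (-0.11 ± 0.043, adjusted p = 0.0381). It missed the threshold in 7 alternative settings, among them without MSN500 replicate 1, 2 or 3 and without Stober500 replicate 2 or 3 (adjusted p of 0.0565 to 0.226).

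The cores TGCGCNC and TGCACNC of the metal response element were common everywhere, in 7 of 20 promoters of the list (35%) and 3603 of 8967 (40.2%). The 250 bases before the Mt2 start site (plus strand, chr8:94172368-94172617, GRCm38.p6) held 3 of them, at 223, 128 and 50 bases before the start, in capitals and in the last case on the opposite strand.
Mt2: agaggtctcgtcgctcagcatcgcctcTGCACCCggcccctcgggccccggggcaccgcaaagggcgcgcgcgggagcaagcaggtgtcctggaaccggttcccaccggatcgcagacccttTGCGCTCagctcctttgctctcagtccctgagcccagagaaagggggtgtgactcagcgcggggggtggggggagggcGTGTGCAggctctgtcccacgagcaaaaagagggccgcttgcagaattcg

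Antioxidant targets of NRF2 were divided, 9 of 23 higher, 4 lower and 10 not passing (median 0.079). The cystine importer gene Slc7a11 was at 127, 106 and 128 CPM in MSN500, against 68.3, 59.6 and 69.9 CPM in Stober500 (0.93 ± 0.11), and Srxn1 and Txnrd1, of the peroxiredoxin and thioredoxin systems, were higher by 0.47 ± 0.039 and 0.42 ± 0.037. Gclc, the catalytic subunit of glutathione synthesis, was lower at 176 ± 3.90 CPM in MSN500 and 240.5 ± 6.56 CPM in Stober500 (-0.39 ± 0.042). Nqo1, a classic target, was at 1.56, 2.17 and 1.94 CPM in MSN500, against 1.95, 1.99 and 1.68 CPM in Stober500, with overlapping groups (adjusted p = 0.779).

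Endoplasmic reticulum chaperones and unfolded protein response genes were 19 of 22 higher, 2 lower and 1 not passing (median 0.37). Creld2 was at 224, 216 and 225 CPM in MSN500, against 141, 139 and 135 CPM in Stober500 (0.74 ± 0.046), Manf, a secreted chaperone partner, at 378, 357 and 374 CPM in MSN500, against 251, 259 and 261 CPM in Stober500 (0.59 ± 0.049) and Hspa5, the master chaperone BiP, at 3762 ± 51.0 CPM in MSN500 and 2972 ± 37.3 CPM in Stober500 (0.40 ± 0.040). Hyou1 was higher by 0.51 ± 0.041. Ddit3, which encodes the stress factor CHOP, was at 45.4, 45.2 and 47.4 CPM in MSN500, against 31.2, 32.2 and 31.3 CPM in Stober500 (0.61 ± 0.090). The members that were lower were the transcription factor genes Xbp1 (-0.20 ± 0.039) and Atf6 (-0.26 ± 0.037).

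ATF4 targets and amino acid genes were 8 of 27 higher, 5 lower and 14 not passing, and 13 were higher without Stober500 replicate 3. The share called was 48.1%, against 39.4% of all genes. Atf4 was higher by 0.37 ± 0.042, Atf3 by 0.73 ± 0.076 and the tRNA synthetase gene Sars by 0.28 ± 0.035, whereas the amino acid importers Slc38a2 and Slc1a4 were lower (-0.34 and -0.74 on the log2 scale). Of 14 heat shock genes 7 were higher and 1 lower, with Dnaja1 (0.31 ± 0.045) and Hsp90aa1 (0.23 ± 0.058) higher, and the inducible Hsp70 gene Hspa1b lower at 1.46 ± 0.227 CPM in MSN500 and 2.66 ± 0.297 CPM in Stober500 (-0.83 ± 0.19). With library totals alone 4 were higher. Of the heat shock list 57.1% was called, against 39.4% of all genes. Hspa1b has a near-identical copy, so its counts are uncertain.

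Cytokines, chemokines and NF-kB genes were 22 of 38 higher, 3 lower and 13 not passing (median 0.45). Tnf, the main early inflammatory cytokine of macrophages, was at 145, 155 and 165 CPM in MSN500, against 59.8, 69.2 and 61.4 CPM in Stober500. MSN500 lay above Stober500 in every library (log2 change 1.35 ± 0.19, adjusted p = 1.68e-04), with control at 65.3 ± 10.6 CPM. The neutrophil chemokine gene Cxcl2 was at 228, 326 and 287 CPM in MSN500, against 97.8, 149 and 96.7 CPM in Stober500 (1.35 ± 0.23, adjusted p = 7.79e-04). The chemokine genes Ccl3 and Ccl4 were higher by 1.27 ± 0.14 and 1.36 ± 0.11, and Csf1, the growth factor of macrophages, was at 4.30 ± 0.729 CPM in MSN500 and 2.05 ± 0.645 CPM in Stober500 (1.10 ± 0.20). Ccrl2, a decoy-type chemoattractant receptor, was higher by 1.06 ± 0.18. Ccl2, a monocyte chemokine gene, was at 129.9, 192 and 171 CPM in MSN500, against 121, 160.2 and 164 CPM in Stober500, overlapping, with an adjusted p of 0.341. Ptgs2 did not pass either (0.12 ± 0.16, adjusted p = 0.602). Csf3 was near its floor at 33 counts in MSN500 and 8 in Stober500, a ratio of 4.51 with an exact 95% interval of 2.04 to 11.3, and its call was lost without MSN500 replicate 1 or 3 or Stober500 replicate 1 or 3 (adjusted p of 0.0507 to 0.0821).

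Of the NF-kB genes on the list, Tnfaip3, which encodes the deubiquitinase A20, was at 48.0, 58.1 and 56.7 CPM in MSN500, against 20.3, 19.4 and 22.2 CPM in Stober500 (1.46 ± 0.14), Nfkbia, the inhibitor IkB-alpha, at 224 ± 27.9 CPM in MSN500 and 172 ± 0.798 CPM in Stober500 (0.44 ± 0.12) and the subunit gene Nfkb2 at 103 ± 0.877 CPM in MSN500 and 70.0 ± 5.14 CPM in Stober500 (0.62 ± 0.061). The members that ran against the list were the anti-inflammatory cytokine gene Il10 at 1.67, 3.08 and 2.98 CPM in MSN500, against 4.68, 5.47 and 6.91 CPM in Stober500 (-1.04 ± 0.17), the chemokine and scavenger gene Cxcl16 at 234 ± 13.8 CPM in MSN500 and 379 ± 5.94 CPM in Stober500 (-0.63 ± 0.047) and Il1b. Cxcl16 shares 18.3% of its exonic length with Zmynd15.

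The interleukin 1 system split by gene. Il1rn, the receptor antagonist that blocks interleukin 1, was at 236, 232 and 249 CPM in MSN500, against 60.5, 65.7 and 71.0 CPM in Stober500, a log2 change of 1.93 ± 0.085 (adjusted p = 8.27e-11) with control at 61.6 ± 4.87 CPM. Il1b, the inflammasome's main substrate, was low in both groups and lower in MSN500, at 6.87, 10.6 and 9.36 CPM in MSN500, against 16.3, 17.6 and 12.5 CPM in Stober500 (-0.73 ± 0.23, adjusted p = 0.0239). That call was lost without MSN500 replicate 1 or 3 or Stober500 replicate 1 or 2, with an adjusted p of 0.0580 to 0.0809. Il18, the other substrate, was at 10.0 ± 0.582 CPM in MSN500 and 18.4 ± 0.712 CPM in Stober500 (-0.81 ± 0.074). Il1a, which is released from damaged cells, was at 3.95, 5.71 and 5.95 CPM in MSN500, against 3.78, 3.27 and 1.88 CPM in Stober500, and its 0.84 ± 0.32 did not pass (adjusted p = 0.0546), although it did in 4 alternative settings, with adjusted p of 0.00777 to 0.0469. Il1a shares 11.2% of its exonic length with Gm14023. Over the 18 inflammasome genes 4 were higher, 10 lower and 4 did not pass. The sensor gene Nlrp3 was at 231 ± 6.17 CPM in MSN500 and 203 ± 4.06 CPM in Stober500 (0.24 ± 0.058), its ATP-gated channel P2rx7 was lower (-0.39 ± 0.041). The lysosomal channel gene P2rx4 was higher by 0.75 ± 0.057, the protease gene Casp1 was at 78.8 ± 3.13 CPM in MSN500 and 87.5 ± 1.96 CPM in Stober500 (adjusted p = 0.173) and the pore gene Gsdmd was lower (-0.23 ± 0.041). Casp1 was called lower with library totals alone (adjusted p = 0.0177).

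Receptors for particles and dying cells were 7 of 32 higher and 14 lower. Olr1, a scavenger receptor for oxidised LDL, was at 2.91, 4.30 and 4.87 CPM in MSN500, against 11.8, 12.8 and 14.5 CPM in Stober500 (-1.60 ± 0.13), and Clec7a, the beta-glucan receptor Dectin-1, at 29.0 ± 4.86 CPM in MSN500 and 50.1 ± 2.74 CPM in Stober500 (-0.72 ± 0.078). Both chains of integrin alpha-v beta-5, a receptor for dying cells, were lower, Itgav at 200.4 ± 5.27 CPM in MSN500 and 390.2 ± 52.8 CPM in Stober500 (-0.90 ± 0.079) and Itgb5 at 159.8, 165 and 159 CPM in MSN500, against 372, 360.0 and 362 CPM in Stober500 (-1.12 ± 0.046, adjusted p = 1.12e-16). Clec4e, the sensor Mincle, was higher at 627 ± 6.85 CPM in MSN500 and 393 ± 14.4 CPM in Stober500 (0.73 ± 0.054), the inhibitory Fc receptor gene Fcgr2b by 0.77 ± 0.049 and the integrin gene Itgax by 0.88 ± 0.11, while the activating Fcgr1 was lower (-0.51 ± 0.049). Toll-like receptors and adaptors were 5 of 21 higher and 8 lower, with the nucleic acid sensors Tlr8 at 16.2, 19.1 and 18.7 CPM in MSN500, against 35.4, 37.7 and 38.5 CPM in Stober500 (-0.98 ± 0.064) and Tlr9 (-0.61 ± 0.095) and the endotoxin receptor Tlr4 (-0.58 ± 0.057) lower. Irak2, a signalling kinase gene, was higher by 0.79 ± 0.069 and Cd180 by 0.59 ± 0.054.

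Chemokine and cytokine receptors were 6 of 28 higher, led by Il7r, and 12 lower. Cx3cr1, the fractalkine receptor of resident macrophages, was at 477, 496 and 460.0 CPM in MSN500, against 803, 772 and 745 CPM in Stober500 (-0.63 ± 0.043). The interleukin 10 receptor gene Il10ra was at 49.3 ± 2.14 CPM in MSN500 and 91.3 ± 12.7 CPM in Stober500 (-0.83 ± 0.069), and Tnfrsf1b, a receptor for TNF, was higher by 0.63 ± 0.050. Csf1r, the receptor on which macrophages depend, was at 2432, 2460.0 and 2420.4 CPM in MSN500, against 3546, 3459 and 3345 CPM in Stober500 (-0.44 ± 0.039, adjusted p = 6.02e-10). Of 12 macrophage markers, 1 (Cd68, 0.47 ± 0.046) was higher, 7 were lower and 4 did not pass. Adgre1, the F4/80 antigen, was at 277 ± 17.7 CPM in MSN500 and 377 ± 15.8 CPM in Stober500 (-0.38 ± 0.044) and Spi1, the lineage factor PU.1, at 339 ± 3.68 CPM in MSN500 and 364 ± 15.7 CPM in Stober500 (adjusted p = 0.586). Csf1r shares 15.1% of its exonic length with Hmgxb3. In bulk RNA, fewer cells of a type and less RNA per cell cannot be told apart.

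Osteoclast-like genes were 9 of 16 higher, 5 lower and 2 not passing. The acid and protease genes Atp6v0d2, Ctsk, Clcn7 and Tcirg1 and the fusion gene Dcstamp (7.08 ± 0.121 CPM in MSN500 and 3.73 ± 0.599 CPM in Stober500) were higher. The RANKL receptor gene Tnfrsf11a was lower at 119, 117 and 117 CPM in MSN500, against 201, 218 and 217 CPM in Stober500 (-0.79 ± 0.042), as were the master factor gene Nfatc1 at 84.4 ± 4.40 CPM in MSN500 and 151 ± 3.07 CPM in Stober500 (-0.78 ± 0.052) and the fusion gene Ocstamp at 0.941 ± 0.336 CPM in MSN500 and 2.16 ± 0.440 CPM in Stober500 (-1.10 ± 0.23). Itgb3 was called higher at a level near its floor (0.729 ± 0.319 CPM in MSN500 and 0.209 ± 0.0877 CPM in Stober500).

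Growth factor and matrix genes were 15 of 24 higher and 6 lower. The log2 changes of this list ran from -2.37 to 2.89 (median 0.31), and the members named next are all among the higher ones. Plau, the urokinase protease gene, was at 819.7, 786 and 848 CPM in MSN500, against 325, 292 and 375 CPM in Stober500 (1.37 ± 0.089), Pdgfb at 114 ± 4.82 CPM in MSN500 and 61.2 ± 6.50 CPM in Stober500 (0.96 ± 0.056) and Igf1 at 467 ± 9.05 CPM in MSN500 and 333 ± 9.22 CPM in Stober500 (0.55 ± 0.038). Hbegf, an EGF receptor ligand, was low at 1.05 ± 0.108 CPM in MSN500 and 0.227 ± 0.0553 CPM in Stober500 (2.25 ± 0.41), as was the basement membrane collagen gene Col4a2 at 1.44 ± 0.142 CPM in MSN500 and 0.202 ± 0.0889 CPM in Stober500 (2.89 ± 0.33). Mmp12, macrophage elastase, was at 11.6, 12.9 and 15.6 CPM in MSN500, against 3.93, 8.12 and 5.08 CPM in Stober500 (1.30 ± 0.35, adjusted p = 0.0124), and without Stober500 replicate 1 its adjusted p was 0.0538. TGF-beta and SMAD genes were 5 of 25 higher and 8 lower, and 3 were higher without MSN500 replicate 3, Stober500 replicate 1 or Stober500 replicate 2. The share of this list called was 52%, against 39.4% of all genes. Beside Tgfbi, the BMP target gene Id1 was at 21.3, 25.8 and 24.0 CPM in MSN500, against 52.1, 54.5 and 58.1 CPM in Stober500 (-1.14 ± 0.085) and the SMAD corepressor gene Skil was lower (-0.58 ± 0.043), while the ubiquitin ligase gene Smurf1 was higher by 0.61 ± 0.058. Of 38 integrin and actin genes 11 were higher and 11 lower (median log2 change -0.0024). The highest change was that of Itgb3, at 1.81 ± 0.42 and near its floor. Cav1, the caveolar coat gene, was at 13.3, 20.4 and 15.4 CPM in MSN500, against 53.2, 51.9 and 57.5 CPM in Stober500 (-1.66 ± 0.094), and the integrin genes Itga6 (-0.88 ± 0.051) and Itgal (-0.77 ± 0.048) were lower too.

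Immediate early and MAP kinase genes were 12 of 30 higher and 6 lower. Averaged over the list, the Stober500 libraries stood at -0.054 to 0.046 (log2 CPM against the Stober500 mean). MSN500 replicate 1 stood within that range at -0.037, and MSN500 replicates 2 and 3 stood above it at 0.23 and 0.21. Fos, a partner in the classic AP-1 dimer, was at 198, 227 and 215 CPM in MSN500, against 462, 461 and 383 CPM in Stober500 (-0.97 ± 0.078), and the Kruppel-like factor genes Klf4 and Klf2 were lower (-0.96 and -0.76 on the log2 scale), whereas the small MAF gene Maff was at 33.4 ± 4.85 CPM in MSN500 and 14.9 ± 1.44 CPM in Stober500 (1.23 ± 0.13). Of 22 macrophage transcription factors 7 were higher and 4 lower (8 lower with library totals alone). The share of this list called was 50%, against 39.4% of all genes. The paired repressors Bhlhe40 (1.14 ± 0.057) and Bhlhe41 (1.10 ± 0.079) were higher. The aryl hydrocarbon receptor gene Ahr was at 1.74 ± 0.380 CPM in MSN500 and 4.05 ± 0.441 CPM in Stober500 (-1.16 ± 0.17) and its repressor Ahrr at 13.3, 17.8 and 16.2 CPM in MSN500, against 43.2, 44.1 and 41.7 CPM in Stober500 (-1.38 ± 0.075).

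BCL2 family genes were 6 of 15 higher and 3 lower (6 lower with library totals alone). Bcl2l1, which encodes the survival factor BCL-XL, was at 116, 119 and 121 CPM in MSN500, against 56.9, 56.3 and 46.6 CPM in Stober500 (1.21 ± 0.063) and Bcl2a1b at 35.4 ± 0.707 CPM in MSN500 and 21.9 ± 0.970 CPM in Stober500, though the near-identical Bcl2a1 copies can share reads. The BH3-only killers Bmf and Bcl2l11 (-0.46 ± 0.060), which encodes BIM, were lower. Of 25 p53 targets 6 were higher and 11 lower. Cdkn1a, the p21 cell cycle inhibitor, was at 248, 236 and 247 CPM in MSN500, against 335, 341 and 324 CPM in Stober500 (-0.39 ± 0.044), Sesn1 at 53.6 ± 0.918 CPM in MSN500 and 95.3 ± 5.30 CPM in Stober500 (-0.77 ± 0.049), and Trp53inp1 (-1.03 ± 0.13) and Eda2r (-0.94 ± 0.18) were lower, while the kinase gene Plk2 was at 184, 213 and 214 CPM in MSN500, against 58.4, 64.2 and 58.8 CPM in Stober500 (1.81 ± 0.13).

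Mitosis genes were 0 of 29 higher, 23 lower and 6 not passing, by small amounts (median -0.17). The spindle gene Nusap1 was at 114, 118 and 125 CPM in MSN500, against 161, 155 and 173 CPM in Stober500 (-0.39 ± 0.045), the checkpoint kinase gene Bub1b at 218 ± 4.82 CPM in MSN500 and 288 ± 14.7 CPM in Stober500 (-0.34 ± 0.043) and the motor gene Kif11 at 155 ± 3.76 CPM in MSN500 and 196 ± 8.82 CPM in Stober500 (-0.28 ± 0.044). Of 40 DNA replication genes 8 were higher and 16 lower (4 higher with library totals alone), the furthest being the nucleotide salvage gene Tk1 at 86.2 ± 3.90 CPM in MSN500 and 133 ± 2.60 CPM in Stober500 (-0.57 ± 0.051) and E2f2 (-0.51 ± 0.044). The share of the replication list called was 60%, against 39.4% of all genes. Interferon response genes were 3 of 34 higher and 13 lower, and 8 were lower without Stober500 replicate 3. The share called was 47.1%, against 39.4% of all genes. Irf1, an interferon regulatory factor gene, was at 13.4 ± 1.30 CPM in MSN500 and 21.1 ± 2.69 CPM in Stober500 (-0.60 ± 0.084) and the antiviral gene Mx2 at 1.76 ± 0.504 CPM in MSN500 and 3.63 ± 1.01 CPM in Stober500 (-0.96 ± 0.23). Usp18 was called higher with overlapping groups at 32.6 ± 3.71 CPM in MSN500 and 25.2 ± 3.20 CPM in Stober500, as was Rsad2 at 9.68, 5.71 and 8.76 CPM in MSN500, against 5.17, 3.85 and 7.12 CPM in Stober500, a call lost in 6 settings (adjusted p of 0.0513 to 0.127). Without MSN500 replicate 1 or 3 or Stober500 replicate 1 or 2, 1 member of the list was higher.

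Of the nuclear respiratory chain list 11.4% was called, of the glycolysis and hypoxia list 26.5% and of the proteasome list 45.5%, against 39.4% of all genes. Of 44 nuclear genes of the respiratory chain 5 were higher and 0 lower, the furthest being Ndufs8 at 143 ± 4.12 CPM in MSN500 and 123 ± 0.284 CPM in Stober500 (0.28 ± 0.048). With library totals alone 1 was higher and 4 were lower, so the direction depended on the scaling, and 2 were higher without MSN500 replicate 1 and 3 without Stober500 replicate 2. The 7 mitochondrially encoded genes had 0 higher and 0 lower, with mt-Co1 at 4929, 4133 and 3519 CPM in MSN500, against 4295, 4668 and 5116 CPM in Stober500. Of 34 glycolysis and hypoxia genes 4 were higher and 5 lower (10 lower with library totals alone, 9 without Stober500 replicate 3). The log2 changes of that list ran from -0.87 to 0.48, with a median of -0.019. Among its members that were higher, Hif1a was at 253 ± 7.11 CPM in MSN500 and 189 ± 10.8 CPM in Stober500 (0.48 ± 0.052). Hk2, a hexokinase gene, was higher by 0.28 ± 0.054. Proteasome genes were 15 of 33 higher and 0 lower, but 3 were lower with library totals alone. The catalytic Psmb6 (368 ± 2.98 CPM in MSN500 and 242 ± 4.19 CPM in Stober500) and the regulatory Psmd8 (433 ± 6.10 CPM in MSN500 and 288 ± 8.23 CPM in Stober500) stood out from the rest with log2 changes of 0.66 ± 0.037 and 0.65 ± 0.034.

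Proteins that sense or mend damaged membranes were 9 of 23 higher and 0 lower, with 3 lower under library totals alone. The share called was 39.1%, against 39.4% of all genes. Galectins detect ruptured vesicles, and Lgals3 was at 1928, 2057 and 2031 CPM in MSN500, against 1336, 1422 and 1191 CPM in Stober500 (0.67 ± 0.062) and Lgals8 at 115 ± 4.79 CPM in MSN500 and 86.5 ± 1.04 CPM in Stober500 (0.47 ± 0.046). Annexin genes Anxa7 and Anxa5 were higher by 0.32 ± 0.037 and 0.29 ± 0.036. NADPH oxidase genes were 3 of 8 higher and 2 lower: the membrane subunit gene Cyba was higher by 0.30 ± 0.052, and the cytosolic Ncf1 was lower (-0.43 ± 0.040). Ncf1 shares 11.1% of its exonic length with Gtf2ird2. Hvcn1, the proton channel that balances the oxidase's charge, was at 8.33, 7.02 and 7.94 CPM in MSN500, against 1.46, 0.953 and 1.02 CPM in Stober500, but 44.2% of its exonic length is shared with Tctn1. Eicosanoid genes were 4 of 16 higher and 8 lower (2 higher with library totals alone). Ptgs1, the constitutive cyclooxygenase gene, was at 115, 119 and 117 CPM in MSN500, against 219, 206 and 195 CPM in Stober500 (-0.76 ± 0.044), the thromboxane synthase gene Tbxas1 was lower (-0.85 ± 0.12), and the prostaglandin D synthase gene Hpgds (0.74 ± 0.059) and prostacyclin receptor gene Ptgir (1.69 ± 0.17) were higher. Small nucleolar RNA host genes were 0 of 10 higher and 6 lower, with Gas5 at 188 ± 5.09 CPM in MSN500 and 239.6 ± 10.0 CPM in Stober500 (-0.28 ± 0.040).

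The few markers of other cell types that could be tested were low. Vwf, an endothelial marker, was at 4.22, 4.80 and 4.79 CPM in MSN500, against 1.31, 1.28 and 1.07 CPM in Stober500 (1.96 ± 0.17), and the 3 endothelial markers counted summed to 4.74 to 5.61 CPM in MSN500 and 1.27 to 1.68 CPM in Stober500. The fibroblast marker Pdgfrb was at 0.654 ± 0.293 CPM in MSN500 and 1.26 ± 0.116 CPM in Stober500, the lymphocyte markers Ighm and Lck summed to 13.8 to 15.6 CPM in MSN500 and 15.8 to 18.1 CPM in Stober500, S100a8 was at 0.982 ± 0.174 CPM in MSN500 and 1.38 ± 0.0394 CPM in Stober500, and the dendritic markers Zbtb46 and Fscn1 summed to 4.18 to 4.68 CPM in MSN500 and 4.27 to 4.88 CPM in Stober500. Pdgfrb was called lower, but not without MSN500 replicate 1 or 3 or Stober500 replicate 2 or 3 (adjusted p of 0.0502 to 0.131). The dendritic sums hide a difference, since the log2 changes of that list ran from -0.99 to 0.21 and Fscn1 was called lower. The Fscn1 call was lost without MSN500 replicate 1, 2 or 3 or Stober500 replicate 1 or 2 (adjusted p of 0.0531 to 0.0896). It was also lost with the DESeq2 Wald test (adjusted p = 0.0687). The part of these markers in the results was not tested.

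A second porous against nonporous pair in the series, MSN-PEG500 against Stober50, shares no library with the first, although it differs in coating and size as well as dose. It gave 4234 calls (33.1% of the genes tested), 2231 higher (17.4%) and 2003 lower (15.7%) in MSN-PEG500. MSN-PEG500 replicate 3 stood apart, with a chi-square of 5.81 and 6.40 per degree of freedom against the other libraries of its group. Those differed from each other by 2.19. Without that replicate 3300 genes were called, and without Stober50 replicate 2 3236. Of the genes higher in MSN500, 1565 were also higher in MSN-PEG500, which is 61.4% of the MSN500 list and 70.1% of the MSN-PEG500 list. Of those lower in MSN500, 1211 were also lower in MSN-PEG500 (48.5% of the MSN500 list and 60.5% of the MSN-PEG500 list), and 58 genes were called in opposite directions. Among the 401 genes at least 2-fold apart, 309 were called the same way and 2 the opposite way. Fabp4 was at 8.11 ± 0.953 CPM in MSN-PEG500 and 0.400 ± 0.111 CPM in Stober50 (log2 change 4.37 ± 0.19) beside 4.17 in the first pair, and Tgfbi at 1.91 ± 0.501 CPM in MSN-PEG500 and 11.6 ± 0.797 CPM in Stober50 (-2.53 ± 0.13). Of the cholesterol genes 22 were higher and 1 lower in MSN-PEG500. That list averaged 0.32 to 0.39 in the MSN-PEG500 libraries and -0.32 to -0.25 in the Stober50 libraries (log2 CPM against the Stober500 mean). The control libraries lay between them at -0.034 to 0.0067, so Stober50 stood below control and MSN-PEG500 above it. Of the V-ATPase genes 16 were higher and 1 lower, and of the mitosis genes 0 higher and 19 lower. Other lists differed from the first pair: 1 respiratory chain gene was higher and 12 were lower, 5 LXR targets were higher and 3 lower, 3 proteasome genes were higher and 2 lower, and 0 interferon response genes were higher and 22 lower. Tnf had 128 ± 22.7 CPM in MSN-PEG500 and 90.2 ± 22.1 CPM in Stober50 (0.54 ± 0.18, adjusted p = 0.0436), beside 1.35 in the first pair. Its values overlapped in the second pair, with MSN-PEG500 down to 103 CPM and Stober50 up to 115 CPM. Control stood at 65.3 ± 10.6 CPM, below both means. The Stober50 libraries were at 74.3, 80.7 and 115 CPM, with replicate 3 the highest, and a control library reached 75.2 CPM, so Stober50 and control overlapped. The difference between pairs was not tested. Il1b did not pass there (-0.58 ± 0.22, adjusted p = 0.0703). Abca1 and Thbs1, a matrix glycoprotein gene, were called in opposite directions: Abca1 was higher in MSN-PEG500 by 0.23 ± 0.071, and Thbs1 was lower in MSN500, at 1.04 ± 0.202 CPM in MSN500 and 2.20 ± 0.594 CPM in Stober500 (-1.04 ± 0.23), and higher in MSN-PEG500 by 0.64 ± 0.23.

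**Figure D4:**
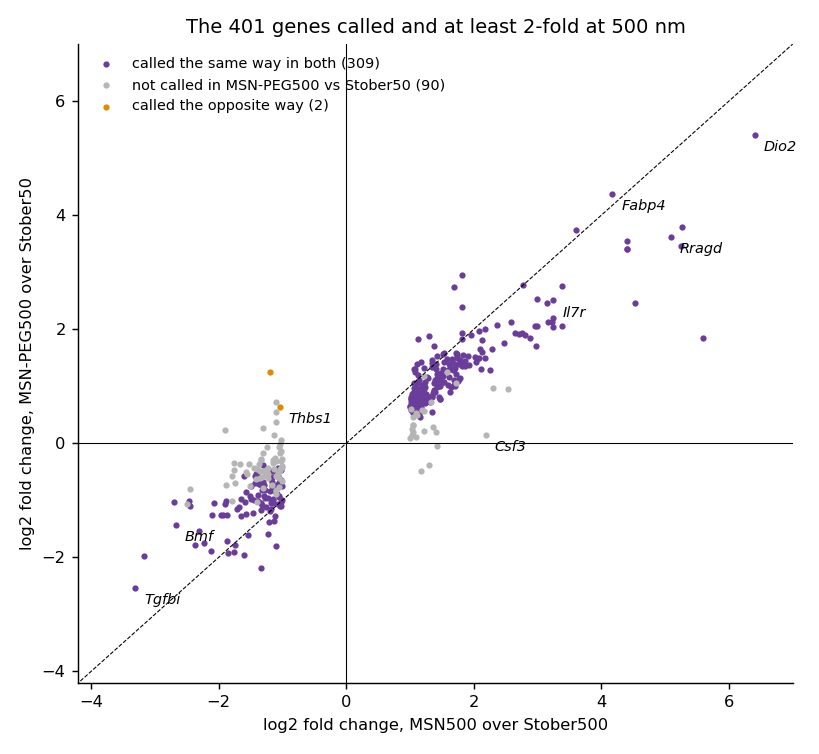
The 401 genes called and at least 2-fold apart between MSN500 and Stober500, with that log2 fold change on the horizontal axis and the log2 fold change of MSN-PEG500 over Stober50 on the vertical axis. Purple points (309) were called the same way in both pairs, grey points were not called in the second and orange points (2) were called the opposite way. The dashed line marks equal changes, and 271 purple points lie nearer to 0 on the vertical than on the horizontal axis.

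The authors' deposited table for this comparison lists 4606 genes past an adjusted p of 0.05, 2374 with a positive and 2232 with a negative log2 ratio, and 170 of them at least 2-fold. Of these, 4586 were called here too. The log2 ratios in it were smaller for strongly changed genes named here: for Fabp4 the authors' deposited table gives a log2 ratio of 3.05 and for Tgfbi -2.52. The gap was wider for Dio2 and Rragd, which had few counts. For these the authors' deposited table gives 1.95 and 2.04, against 6.41 and 5.09 here. Csf3, called here, is not past the threshold in the authors' deposited table, which gives it a log2 ratio of 0.37.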

How the data were processed

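RNA from RAW264.7 cells was sequenced as single reads of a TruSeq library on an Illumina instrument, per the labels' protocols. The deposited counts are alignments overlapping a gene by at least 1 base, per the file headers, so that a read in overlapping exons can count for several genes, and the sources used here do not say whether strand was used. The submitters' processing notes name the aligner Novoalign 2.08.03, the packages limma 3.28.21 and DESeq2, and the mouse builds mm10 and GRCm38. The deposited FPKM values were scaled by the authors for exon length and mapped reads. The deposited comparison table holds the authors' log2 ratios, and as a score the scaled negative log10 of their adjusted p or of an exon test. Base pairs per gene are also the authors' own.

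From the counts, edgeR 4.0.16 (R 4.3.3) was fitted with TMM factors and a robust quasi-likelihood model of group means on all 15 libraries after filterByExpr, which kept 12798 of 13342 genes, with Benjamini-Hochberg adjustment at 0.05. CPM used library totals. On simulated counts of 12760 genes for MSN500 against Stober500 the test recovered 42 of 50 genes changed 1.25-fold, 47 of 50 at 1.5-fold and all at 2-fold (50) and 4-fold (50), with 12 false among 201 calls. The changed genes averaged at least 50 counts, as many raised as lowered, and all other genes were simulated equal in all groups. The simulation therefore does not address the scaling or genes with few counts. Alternatives were DESeq2 1.42.0, limma 3.58.1, other scalings and filters, a replicate block, a length correction and leaving out each library. Promoters came from a RefSeq table of build GRCm38.p6.

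Genes were named by rule: the 12 called genes with the largest and the 12 with the smallest fold change among those at 1 CPM or more whose groups did not overlap, in each list the 4 with the lowest adjusted p and the 2 with the largest called change, and a fixed set. A few of these are not reported here. Outside the rule, these were named after their values were seen: Atp6v0a1, Atp6v0c, Atp6v0e2, Tcirg1, Ctsh, Ctsc, Ctsf, Gm2a, Mitf, Tfeb, Tfe3, Hmgcs1, Insig1, Srebf2, Ccl3, Csf1, Ccrl2, Il10, Hbegf, Plau, Mmp12, Nfatc1, Ocstamp, Dcstamp, Xbp1, Atf6, Ulk1, Wipi1, Ireb2, Clec7a, Itgav, Itgax, Tlr9, Il10ra, Adgre1, Pparg, Nfkbia, Eda2r, Ptgs2, Thbs1, Map1lc3b, Apoe, Abcg1, Cd36, Cpt1a, Casp1, Gsdmd, Spi1, Ftl1, Tfrc and Hspa5. The compared groups and gene lists were chosen with earlier results of these data known.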

Additional observations from a re-analysis of the deposited data

How the results depend on the processing

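The direction and side of the threshold of the named genes held in most settings: none reversed, 15 genes missed the threshold in at least 1 setting (54 cases) and Il1a and Casp1 passed it in 5 cases. The number of genes called with all libraries of the pair ranged from 4555 (mean of at least 5 CPM) to 5506 (library totals only), against 5045; DESeq2 called 4610 and limma-voom 5050. Leaving out a library gave 4291 to 4962 calls, 2226 to 2714 of them higher and 1926 to 2248 lower, and 394 to 443 at 2-fold or more; for MSN-PEG500 against Stober50 it gave 3236 to 4100. With a filter at a mean of 5 CPM 165 genes were called at 2-fold or more in place of 401, and 9809 genes were tested in place of 12798. The replicate numbers were not taken to pair the libraries, since same-numbered MSN500 and Stober500 libraries correlated by 0.021, 0.037 and -0.019 and MSN500 replicate 1 correlated best with Stober500 replicate 3; with the replicate block 5167 genes were called (4387 in the second pair). Among other counts of list members that moved by over 1.5 times, with only the 6 libraries 3 glycolysis genes were lower and 2 MiT/TFE genes, with upper quartile factors 2 proteasome genes were lower, and at a mean of 5 CPM no heat shock gene was lower. The cause was not tested. Depth limited genes near 1 CPM, whose standard errors on the log2 scale exceeded 0.3 in cases such as Hbegf and Optn.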

Other observations

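Between the 2 pairs of particles, 58 genes were called in opposite directions, 28 of them higher in MSN500 and lower in MSN-PEG500. Apart from Thbs1 and Gm12967, they were under 2-fold apart between MSN500 and Stober500. Ybx3, which encodes a cold shock domain protein, was at 357 ± 6.75 CPM in MSN500 and 325 ± 3.95 CPM in Stober500, but at 311 ± 7.40 CPM in MSN-PEG500 and 355 ± 1.56 CPM in Stober50 (SD, n = 3 each). Tomm40, the pore of the mitochondrial outer membrane, was at 144 ± 6.15 CPM in MSN500 and 126 ± 4.75 CPM in Stober500, and at 125 ± 9.80 CPM in MSN-PEG500 and 145 ± 5.52 CPM in Stober50. Macf1, a giant cytoskeletal linker, ran the other way, at 383 ± 27.1 CPM in MSN500 and 489 ± 35.0 CPM in Stober500, and at 489 ± 32.0 CPM in MSN-PEG500 and 415 ± 40.9 CPM in Stober50. Control stood at 316.5 ± 6.36 CPM for Ybx3, 126.5 ± 2.09 CPM for Tomm40 and 499.7 ± 22.2 CPM for Macf1. For each of them the control mean lay nearer to the Stober500 and MSN-PEG500 means than to the MSN500 and Stober50 means. These 3 genes were chosen after their values were seen.

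The authors' deposited table also scores exons that depart from the rest of their gene, by a chi-square test that does not model replicates, and 17 genes passed a corrected p of 0.05 for MSN500 against Stober500. In the authors' deposited table the exon's log2 ratio departed from that of its gene by -1.23 in Itpr2, an endoplasmic reticulum calcium channel gene, by 1.37 in Akap13, by -1.09 in Il1rn and by -1.06 in Tcirg1. The last 2 genes were also higher as a whole in MSN500, and Atp6v0c, whose total did not pass, had an exon departing by 1.03 in the authors' deposited table.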
